A study of Mus musculus with 13 samples.

Results

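The genes described here are 10 genes known from pluripotent cells, Pou5f1, Nanog, Sox2, Zfp42, Utf1, Dppa4, Dppa5a, Tdh, Lin28a and Lin28b. They were followed from ES cell derived Flk-1+ cells into haemogenic endothelium. They were chosen by name, and each matched a single row of the 45250 gene rows in the deposited expression files. The 13 RNAseq libraries comprise Flk-1+ cells of 3 genotypes (WT, Lmo2-/- and Tal1-/-, 3 libraries per genotype) and HE1 of WT and Lmo2-/- (2 libraries per genotype). Flk-1+ cells were selected magnetically from embryoid bodies by the VEGF receptor Flk-1 and are enriched for haemangioblasts, mesodermal progenitors of blood and vessels. HE1 is the first haemogenic endothelium of the blast culture, sorted as Tie2+ Kit+ CD41- cells. A single ES cell line is named for each genotype (CCB for WT), so libraries of a group replicate the differentiation and not the line, and genotype and line cannot be told apart.

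Pou5f1 (OCT4), Sox2 and Nanog form the transcription factor core that holds ES cells undifferentiated, and all of them act together at shared target genes. Zfp42 (REX1), Utf1, Dppa4 and Dppa5a are ES cell genes that are shut off early in differentiation, and Tdh encodes the threonine dehydrogenase on which mouse ES cells depend for glycine and one-carbon units. Lin28a and Lin28b encode RNA-binding proteins that block maturation of the let-7 microRNAs, and they stay on in many embryonic progenitors, fetal blood progenitors among them, after the core factors are gone.

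A gene was counted as remaining in a group when every library had at least 1 FPKM (a fragment-based level corrected for transcript length and library size), as off when every library was below 1 FPKM, and as mixed otherwise. In WT Flk-1+ cells 4 of the 10 genes remained (Pou5f1, Nanog, Lin28a and Lin28b) and 6 were off. In Lmo2-/- Flk-1+ cells 3 remained (Pou5f1, Lin28a and Lin28b), 5 were off, and Nanog and Dppa4 were mixed. In Tal1-/- Flk-1+ cells the 4 genes that remained in WT also did, 4 were off, and Dppa5a and Utf1 were mixed. In HE1 of both genotypes only the 2 Lin28 genes remained. In WT HE1 7 genes were off and Dppa4 was mixed, and in Lmo2-/- HE1 8 were off. In Lmo2-/- HE1 replicate 1, the shallowest library, 3 fragments would have been worth 1.25 (Nanog) to 5.08 FPKM (Dppa5a) for these 8 genes. Their off class in Lmo2-/- HE1 therefore rests mainly on replicate 0. For Dppa5a 3 fragments were worth 1.71 FPKM in replicate 0 as well, and 2.11 and 1.91 FPKM in WT HE1. They were worth 0.843 to 1.61 FPKM in the Flk-1+ libraries. A listed 0 of Dppa5a in HE1 therefore does not place it below 1 FPKM. At the threshold of 1 FPKM Sox2, Zfp42 and Tdh were off in every group. The classes of low genes moved with the threshold. At 0.5 FPKM Zfp42 remained in Tal1-/- Flk-1+ cells, which made 5 genes there, Sox2 was mixed there, and Dppa4 remained in WT HE1. At 2 FPKM Nanog was mixed in WT Flk-1+ cells, which left 3 genes remaining there, and Nanog and Dppa4 were off in Lmo2-/- Flk-1+ cells.

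**Figure D1:**
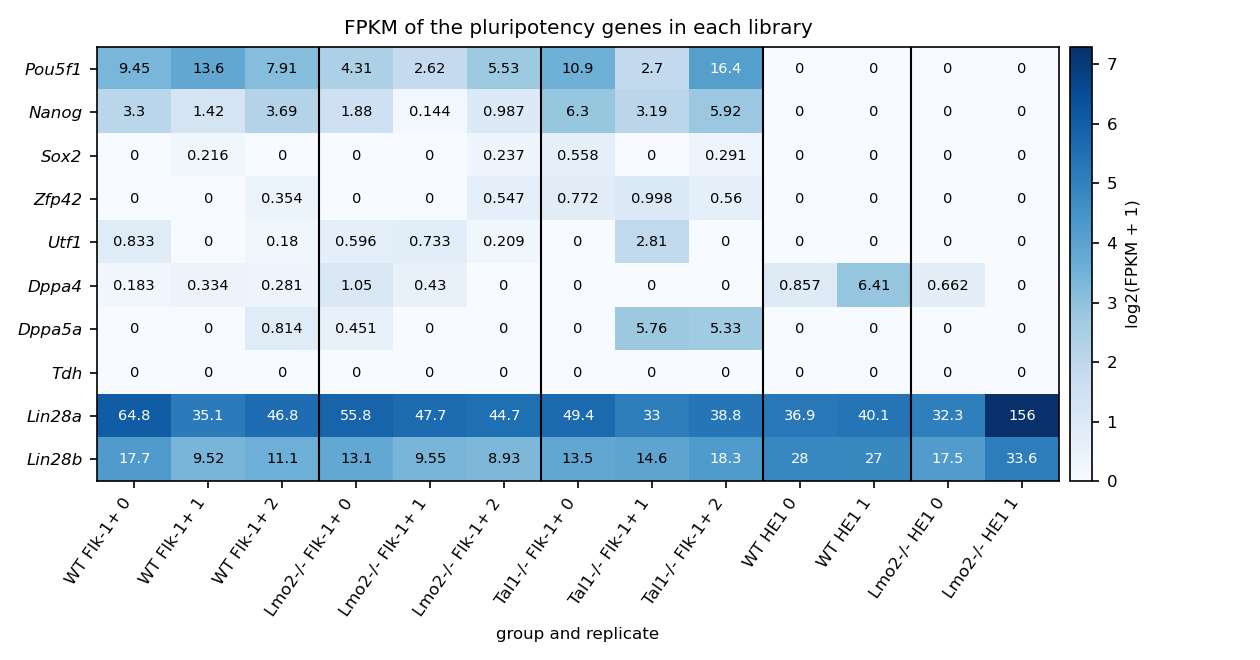
FPKM of the 10 genes (rows) in the 13 libraries (columns, by group and replicate), with the value printed in each cell and shading by log2(FPKM + 1). Lin28a and Lin28b are above 8 FPKM in every library, Pou5f1 and Nanog are above 0 in all 9 Flk-1+ libraries and listed at 0 in the 4 HE1 libraries, and the other 6 genes are at or near 0 in most libraries.

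The promoter windows of 3 of these genes are shown because they hold the octamer, the motif that OCT4 binds, and because these genes differed in level: Nanog remained in WT and Tal1-/- Flk-1+ cells and was mixed in Lmo2-/-, while Sox2 and Zfp42 were off in each. The windows are from RefSeq on GRCm38.p6 and run from 250 bases before to 50 bases after an annotated gene start, 300 bases in all. Capitals mark the octamer (ATGCAAA or its reverse complement) and the SOX site (CATTGT or its reverse complement).
Nanog, chr6:122707239-122707538, plus strand: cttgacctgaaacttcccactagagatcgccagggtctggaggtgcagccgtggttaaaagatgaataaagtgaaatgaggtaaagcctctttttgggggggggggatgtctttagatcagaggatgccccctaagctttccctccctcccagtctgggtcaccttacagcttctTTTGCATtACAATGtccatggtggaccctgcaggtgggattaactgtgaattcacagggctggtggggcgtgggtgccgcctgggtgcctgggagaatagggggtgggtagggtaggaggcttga
Sox2, chr3:34649745-34650044, plus strand: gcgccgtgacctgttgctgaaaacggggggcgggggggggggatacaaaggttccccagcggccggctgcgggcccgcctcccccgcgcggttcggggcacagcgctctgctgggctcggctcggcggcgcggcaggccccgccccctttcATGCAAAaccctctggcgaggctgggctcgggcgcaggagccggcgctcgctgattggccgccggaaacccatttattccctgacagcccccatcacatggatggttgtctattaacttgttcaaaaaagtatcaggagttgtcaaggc
Zfp42, chr8:43306960-43307259, minus strand: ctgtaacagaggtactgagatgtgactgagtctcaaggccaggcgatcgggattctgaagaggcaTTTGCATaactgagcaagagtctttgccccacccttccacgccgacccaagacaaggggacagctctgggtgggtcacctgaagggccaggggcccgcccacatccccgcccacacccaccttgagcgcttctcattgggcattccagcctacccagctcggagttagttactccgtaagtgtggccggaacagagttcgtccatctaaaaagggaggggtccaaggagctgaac

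Windows were given for 7 of the 10 genes, 9 windows in all because Pou5f1 and Nanog have 2 each. None was matched for Dppa4, Dppa5a and Tdh. The octamer occurred in 4 of the 9 windows (both of Nanog, and those of Sox2 and Zfp42), against 4.63% of all 32851 promoter windows of the same length. The 2 Nanog windows overlap and hold the same octamer, so a single site was counted in both. In the Nanog window shown the octamer lay 75 bases before the gene start. There it stood 1 base from a SOX site in the order of the element that OCT4 and SOX2 bind jointly, and the overlapping Nanog windows were the 2 windows among all 32851 with that exact composite. A SOX site was also found in the Lin28a window, 96 bases before its start, and in the second Pou5f1 window, against 12.6% of all windows. GATA sites (AGATAA or TGATAA) occurred in the Lin28b window, 2 of them, and in no other window of these genes, against 18.6% of all windows. E-boxes (CANNTG) occurred in all these windows except those of Utf1 and Lin28a, against 72.3% of all. A match of letters describes these windows and shows no binding, and the Zfp42 octamer overlaps an E-box.

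Kdr, which encodes Flk-1, ran from 68.7 to 252 FPKM in the 9 Flk-1+ libraries, and the endothelial genes Tek, Cdh5, Pecam1 and Cd34 were at most 5.48 FPKM there and at least 38.9 FPKM in each HE1 library. The mesoderm gene Eomes was 40.1 to 122 FPKM in Flk-1+ cells and at most 1.64 FPKM in HE1. T, Mesp1, Mixl1 and Etv2 were also at most 2.32 FPKM in HE1. Pdgfra was 22.5 to 45.3 FPKM in Flk-1+ cells, at most 2.98 in WT HE1, and 37.3 and 94.5 in Lmo2-/- HE1. Hand1 was 48.9 to 257 FPKM in Flk-1+ cells, at most 17.7 in WT HE1, and 117 and 210 in Lmo2-/- HE1. Runx1 overlapped between the stages, at 3.49 to 17.2 FPKM in Flk-1+ cells and 5.42 to 13.1 FPKM in HE1. Lmo2 was 21.6 to 30.8 FPKM in WT and 2.17 to 6.48 FPKM in Lmo2-/- Flk-1+ libraries. It was 4.30 and 20.6 FPKM in the HE1 libraries labelled WT against 6.42 and 0 FPKM in those labelled Lmo2-/-, which does not separate the genotypes, so genotype directions in HE1 rest on the labels. Tal1 was 21.98 to 37.4 FPKM in WT and 2.74 to 3.41 FPKM in Tal1-/- Flk-1+ libraries. Fragment counts are not in the files. Low FPKM values move in steps of single fragments, and by these steps a single fragment counted for most in replicate 1 of Lmo2-/- HE1, 3.85 times the median over the 13 libraries, against 0.614 to 1.60 times in the other 12. Of 4079 genes with a median above 10 FPKM, 191 were listed at 0 in this shallow library and at most 59 in any other.

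Pou5f1 (XLOC_015281, chr17:35506018-35510772, plus strand, in the GENCODE annotation of GRCm38) was present in every Flk-1+ library. Its FPKM in WT was 9.45, 13.6 and 7.91 in replicates 0, 1 and 2. In Lmo2-/- it was 4.31, 2.62 and 5.53, and in Tal1-/- it was 10.9, 2.70 and 16.4. Each Lmo2-/- library lay below each WT library, while the Tal1-/- libraries spanned nearly the whole range of the other groups. WT averaged 10.3 ± 2.95 (SD, n = 3), Lmo2-/- 4.15 ± 1.46 (SD, n = 3) and Tal1-/- 10.01 ± 6.89 (SD, n = 3). Among the genes tested Pou5f1 ranked between percentiles 37.4 and 82.4 in the Flk-1+ libraries. All 4 HE1 libraries were listed at 0. At its transcript length 3 fragments would have been worth at most 0.869 FPKM in the 12 deeper libraries and 2.09 FPKM in Lmo2-/- HE1 replicate 1. This value for replicate 1 is close to the lowest Flk-1+ level, so in that library the 0 alone says little.

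Nanog (XLOC_031886, chr6:122707489-122714633, plus strand) encodes the homeodomain factor of the core and was lower than Pou5f1 in each Flk-1+ library except Tal1-/- replicate 1. In WT its FPKM was 3.30, 1.42 and 3.69 in replicates 0, 1 and 2, in Lmo2-/- 1.88, 0.144 and 0.987, and in Tal1-/- 6.30, 3.19 and 5.92. The 3 Tal1-/- libraries lay above the 3 Lmo2-/- libraries, and WT lay between them with overlap on both sides. WT averaged 2.80 ± 1.21 (SD, n = 3), Lmo2-/- 1.003 ± 0.866 (SD, n = 3) and Tal1-/- 5.14 ± 1.70 (SD, n = 3). The lowest value, in Lmo2-/- replicate 1, was worth about 1.11 fragments. As for Pou5f1, all 4 HE1 libraries were listed at 0. The annotation holds 2 pseudogene copies, Nanog-ps1 and Nanog-ps2, with which Nanog can share reads, so its level is uncertain.

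**Figure D2:**
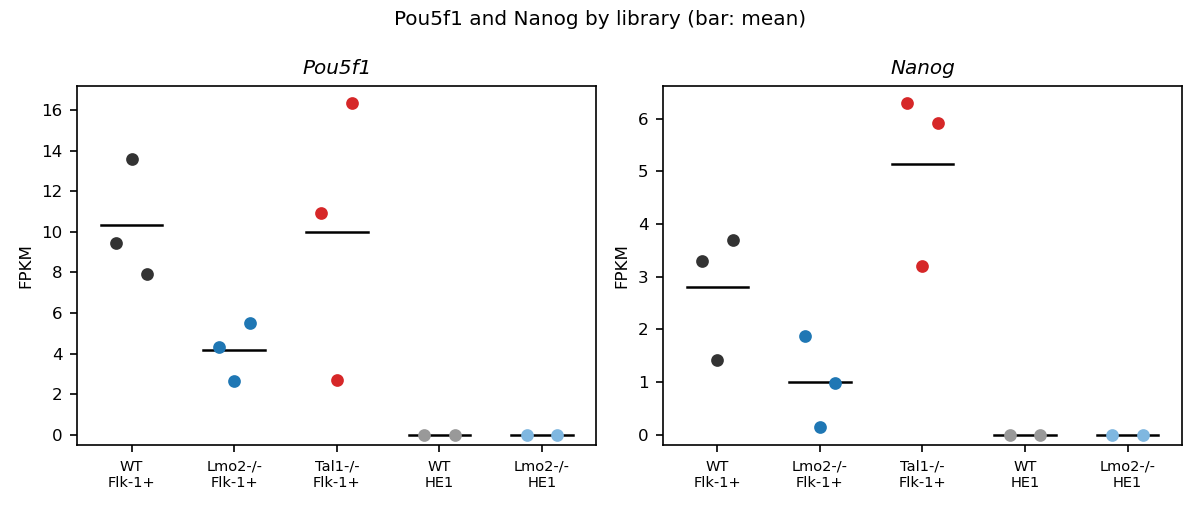
FPKM of Pou5f1 (left) and Nanog (right) in each library, by group, with bars at the group means. Lmo2-/- Flk-1+ libraries have the lowest Flk-1+ means of both genes (4.15 and 1.003 FPKM), and the 4 HE1 libraries are at 0.

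Sox2 (XLOC_022138, chr3:34650405-34652461, plus strand), the partner of OCT4, was off throughout. It was listed at 0 in 9 of the 13 libraries. The other values were 0.216 FPKM in WT replicate 1, 0.237 in Lmo2-/- replicate 2, and 0.558 and 0.291 in Tal1-/- replicates 0 and 2, all in Flk-1+ cells. These were worth 2.0 to 5.02 fragments each. Sox2 lies inside Sox2ot, and the deposited locus is shared by 11 rows, of which the Sox2ot row reached 0.438 FPKM at most.

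Zfp42 (XLOC_038536, chr8:43295063-43306980, minus strand), a zinc finger marker of undifferentiated ES cells, was below 1 FPKM in every library. It was detected in each Tal1-/- Flk-1+ library, at 0.772, 0.998 and 0.560 FPKM. Of the WT and Lmo2-/- Flk-1+ libraries, only replicate 2 of each had a value, 0.354 and 0.547 FPKM. Each Tal1-/- library thus lay above each library of the other genotypes, on values worth 5.09 to 7.14 fragments in Tal1-/-. The values of the other genotypes were worth at most 4.09 fragments. Over all tested genes, which leave out Zfp42, 12.6% had no overlap in Tal1-/- against WT and 13.3% in Tal1-/- against Lmo2-/-. For Zfp42 the exact permutation test gave p = 0.10 against WT and against Lmo2-/-, the smallest that 3 against 3 libraries allow. HE1 was listed at 0, and the pseudogene copy Zfp42-ps1 can share its reads.

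Utf1 (XLOC_035267, chr7:139943789-139945112, plus strand), a chromatin factor of ES cells, was at most 0.833 FPKM in WT and Lmo2-/- Flk-1+ cells. In Tal1-/- it was 2.81 FPKM in replicate 1 (13.02 fragments) and listed at 0 in replicates 0 and 2, so its mixed class rests on that library. Dppa5a (XLOC_040702, chr9:78367052-78368177, minus strand), which encodes an RNA-binding protein of ES and germ cells, was at most 0.814 FPKM in WT and Lmo2-/- Flk-1+ cells. In Tal1-/- it was 5.76 and 5.33 FPKM in replicates 1 and 2, worth 12.1 and 14.3 fragments, and listed at 0 in replicate 0. Both genes were listed at 0 in HE1. Dppa5a shares sequence with the copies Dppa5b and Dppa5c, and its level is uncertain for that reason.

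Dppa4 (XLOC_014063, chr16:48283733-48294237, plus strand), a chromatin-associated protein of the early embryo, had the opposite order of stages in WT. Its FPKM was 0.183, 0.334 and 0.281 in WT Flk-1+ cells and 0.857 and 6.41 in WT HE1. In Lmo2-/- it was 1.05, 0.430 and 0 in Flk-1+ cells and 0.662 and 0 in HE1, and it was listed at 0 in each Tal1-/- library. Only WT HE1 replicate 1, with 27.8 fragments, rested on more than the 6.49 fragments of Lmo2-/- Flk-1+ replicate 0. Tdh (XLOC_012264, chr14:63492347-63509092, minus strand) was listed at 0 in all 13 libraries.

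Lin28a (XLOC_027215, chr4:134003330-134018841, minus strand) was the highest of the 10 genes in each of the 13 libraries. Its FPKM was 64.8, 35.1 and 46.8 in WT, 55.8, 47.7 and 44.7 in Lmo2-/-, and 49.4, 33.0 and 38.8 in Tal1-/- Flk-1+ cells. In HE1 it was 36.9 and 40.1 in WT, and 32.3 and 156 in Lmo2-/-. The value of 156 came from the shallow library, and the other 3 HE1 libraries lay within the range of the Flk-1+ libraries or just below it. Flk-1+ cells averaged 48.9 ± 14.9 (SD, n = 3) for WT, 49.4 ± 5.75 (SD, n = 3) for Lmo2-/- and 40.4 ± 8.31 (SD, n = 3) for Tal1-/-, and the 3 genotypes overlapped. In percentiles of the genes tested Lin28a lay between 91.8 and 97.0 in Flk-1+ cells and between 85.8 and 96.6 in HE1.

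Lin28b (XLOC_004334, chr10:45376620-45486395, minus strand) was lower than Lin28a in each library. Flk-1+ cells had 17.7, 9.52 and 11.1 FPKM in WT, 13.1, 9.55 and 8.93 in Lmo2-/-, and 13.5, 14.6 and 18.3 in Tal1-/-. In HE1 it was 28.0 and 27.0 in WT, and 17.5 and 33.6 in Lmo2-/-. Within each genotype the HE1 libraries lay above the Flk-1+ libraries, and Tal1-/- lay above Lmo2-/- in Flk-1+ cells. Of all tested genes, 27.6% lay higher in HE1 without overlap in WT and 31.9% in Lmo2-/-. In Flk-1+ cells 6.59% lay higher in Tal1-/- than in Lmo2-/- without overlap. Lin28b in Flk-1+ cells averaged 12.8 ± 4.34 (SD, n = 3) for WT, 10.5 ± 2.26 (SD, n = 3) for Lmo2-/- and 15.5 ± 2.55 (SD, n = 3) for Tal1-/-. HE1 averaged 27.5 ± 0.733 (SD, n = 2) for WT and 25.6 ± 11.4 (SD, n = 2) for Lmo2-/-. Its percentile among the genes tested was 68.0 to 84.5 in Flk-1+ cells and 74.8 to 85.1 in HE1.

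**Figure D3:**
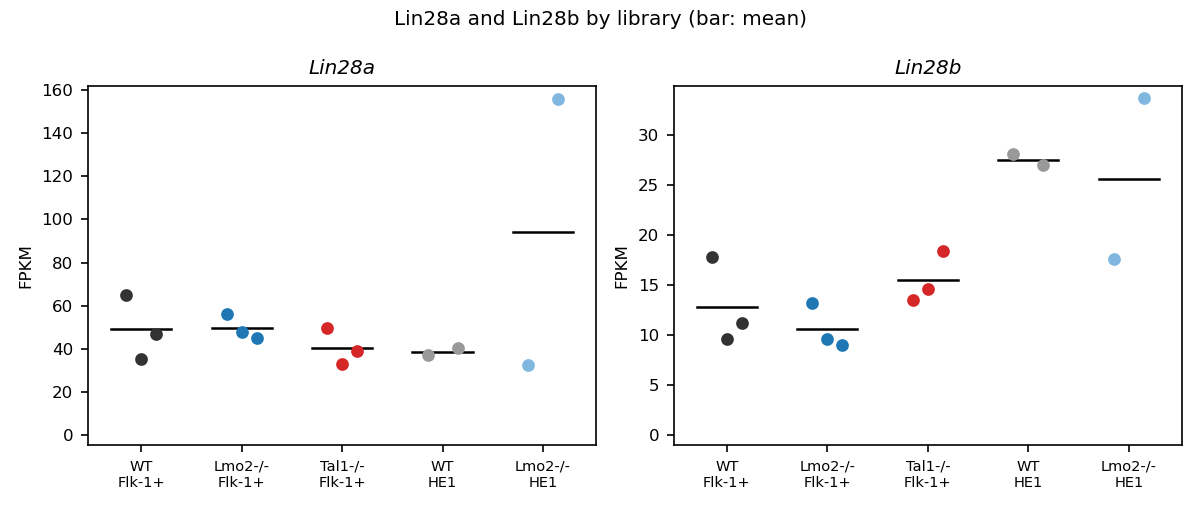
FPKM of Lin28a (left) and Lin28b (right) in each library, by group, with bars at the group means. Lin28a has similar levels in all groups apart from Lmo2-/- HE1 replicate 1 (156 FPKM), and the Lin28b means are higher in HE1 (27.5 and 25.6 FPKM) than in Flk-1+ cells (10.5 to 15.5 FPKM).

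To ask whether the loss of either factor changed these genes in Flk-1+ cells, they were tested among 13802 genes with at least 1 FPKM in at least 2 libraries, by limma on log2(FPKM + 1). Of the 10 genes, 6 passed this filter (Pou5f1, Nanog, Lin28a, Lin28b, Dppa4 and Dppa5a). A call was a Benjamini-Hochberg adjusted p below 0.05. None of the 6 was called in Lmo2-/- against WT, where limma called 0% of all genes, or in Tal1-/- against WT, where it also called 0%. At an unadjusted p below 0.05, limma had 307 genes in the first of these comparisons and 843 in the second. None of the 6 was called in Tal1-/- against Lmo2-/- either, where 0.0145% of genes were. The targeted genes Lmo2 and Tal1 were themselves not called against WT. The absence of a call therefore does not show an unchanged level. In bulk samples a lower level can come from fewer cells that express a gene or from less RNA per cell, and these cannot be told apart.

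Pou5f1 differed by -1.15 ± 0.54 (SE) on the log2(FPKM + 1) scale in Lmo2-/- against WT, with a limma adjusted p of 1, and by -0.27 ± 0.54 (SE) in Tal1-/- against WT, also with an adjusted p of 1. Leaving out Tal1-/- replicate 1, the library with 2.70 FPKM, turned the latter to 0.38. In the same limma fit Nanog differed by -0.97 ± 0.45 (SE) in Lmo2-/- against WT (adjusted p = 1) and by 0.71 ± 0.45 (SE) in Tal1-/- against WT (adjusted p = 0.923), which share their WT libraries. The former was -0.61 without Lmo2-/- replicate 1, and the latter was 0.41 without WT replicate 1. Between both mutants Nanog was 1.67 ± 0.45 (SE) higher in Tal1-/- on that scale, with an adjusted p of 0.504 by limma. Lin28a and Lin28b differed by between -0.30 and 0.52 in the 3 comparisons, with limma adjusted p of at least 0.917. Dppa5a, with its values in 2 Tal1-/- libraries, had an adjusted p of 0.737 against WT and 0.747 against Lmo2-/- by limma. It passed the filter through these libraries alone, so only a higher call in Tal1-/- was open to it.

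Groups whose libraries do not overlap were also counted. In Lmo2-/- against WT, 1 of the 6 tested genes (Pou5f1, lower) had groups without overlap, where 8.21% of all tested genes did. In Tal1-/- against WT it was 1 of the 6 (Dppa4, at 0 in Tal1-/-), where 12.6% did. In Tal1-/- against Lmo2-/- it was 2 of the 6 (Nanog and Lin28b, higher in Tal1-/-), where 13.3% did. The exact permutation test gave p = 0.10 for each of these 4, the smallest it can give with 3 against 3 libraries. The summed FPKM of the 8 genes other than Lin28a and Lin28b was 13.2 to 15.6 in the WT, 3.93 to 8.28 in the Lmo2-/- and 15.5 to 28.5 in the Tal1-/- Flk-1+ libraries.

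The passage from Flk-1+ cells to HE1 was tested in WT, in Lmo2-/- and as the mean of both. Pou5f1 fell to a listed 0 in both genotypes, with limma adjusted p of 0.00271 in WT, 0.0136 in Lmo2-/- and 0.000283 for the mean. Without the shallow library the limma adjusted p in Lmo2-/- was 0.0545, without Lmo2-/- Flk-1+ replicate 2 it was 0.0511, and that for the mean was 0.000904. Nanog fell in WT (limma adjusted p = 0.0324) and in the mean (adjusted p = 0.0101), and Lmo2-/- alone gave an adjusted p of 0.201. The WT call of Nanog was lost without WT Flk-1+ replicate 0 or 2, either WT HE1 library or Lmo2-/- Flk-1+ replicate 2, with adjusted p up to 0.182. No fold is given for either gene against groups at 0. All 4 HE1 libraries lay below the 6 Flk-1+ libraries of WT and Lmo2-/- for both genes, 2 of the 6 tested, where 20.5% of all tested genes had no overlap. The exact permutation test within genotype gave p = 0.01 for Pou5f1, the smallest of 100 arrangements, and p = 0.02 for Nanog, unadjusted for the 10 genes examined.

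Lin28b was higher in HE1 by 1.12 ± 0.28 (SE) on the log2(FPKM + 1) scale in the mean of both genotypes, with a limma adjusted p of 0.00806. The median over all tested genes was itself 0.20 in that comparison, so Lin28b stood 0.92 above it. By limma its difference was 1.15 ± 0.39 (SE) in Lmo2-/- (adjusted p = 0.0449) and 1.09 ± 0.39 (SE) in WT (adjusted p = 0.102). The Lmo2-/- call was lost when any of 10 of the 13 libraries was left out, with adjusted p between 0.0536 and 0.303. The call depended on the scaling of the libraries. With quantile normalization the limma mean difference was 0.43 (adjusted p = 0.237) against a median of all genes of -0.01, and with libraries rescaled to a common median it was 0.40 (adjusted p = 0.230) against -0.30. Lin28a differed by 0.11 ± 0.36 (SE) with an adjusted p of 0.836, and by -0.66 and -0.63 under these scalings and -0.44 without the shallow library, none of them called. The direction of Lin28a between the stages thus changed with the scaling, and also at the reported scaling once the shallow library was left out.

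**Figure D4:**
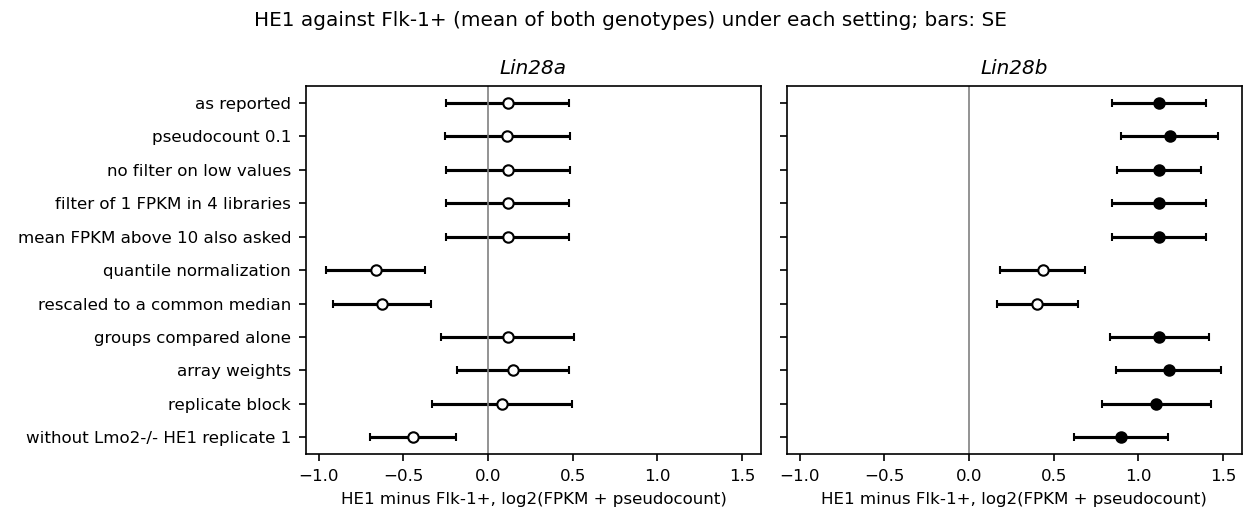
Difference of mean log2(FPKM + pseudocount), HE1 minus Flk-1+, for Lin28a (left) and Lin28b (right) as reported and under each alternative, with the SE as bars and filled points for an adjusted p below 0.05. Lin28b is positive in each row and loses the call under both other scalings (0.43 and 0.40), and Lin28a moves from 0.11 to -0.66 and -0.63 there.

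Of the 6 tested genes, 2 were called in WT HE1 against WT Flk-1+ (Pou5f1 and Nanog, lower), where 9.74% of all tested genes were called. In Lmo2-/- 2 were called (Pou5f1 lower, Lin28b higher), where 25.5% were. In the mean of both 3 were called (Pou5f1 and Nanog lower, Lin28b higher), where 30.3% were. The share called is thus high across all genes, and 3080 of the called genes were higher and 1103 lower in HE1. Under quantile normalization this split was 1805 to 1401, and after rescaling it was 1338 to 2198. Pou5f1, Nanog and Dppa5a were listed at 0 in every HE1 library and passed the filter through Flk-1+ libraries alone. For Dppa5a these were Tal1-/- libraries, which are not part of the stage comparisons. Only a lower call was open to Pou5f1, Nanog and Dppa5a between the stages. None of the 6 was called in Lmo2-/- HE1 against WT HE1 (4.54% of all tested genes) or for an interaction of genotype and stage (0.464%). Dppa4, at 0.857 and 6.41 FPKM in WT HE1, had adjusted p of 0.0834 against WT Flk-1+, 0.151 against Lmo2-/- HE1 and 0.369 for the interaction by limma.

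Other genes of the same networks placed these 10 in context. Of 17 naive ES cell genes, 10 were below 1 FPKM in every WT Flk-1+ library, 10 in every Lmo2-/- and 9 in every Tal1-/- one, and 10 of the 17 passed the filter for testing. Nr0b1, Tcl1 and Dppa3 were listed at 0 in all 13 libraries. Their summed FPKM in Flk-1+ libraries, 150.2 to 338, came mostly from Sall4, a zinc finger factor that binds with OCT4 and is also active in mesoderm (79.7 to 271 FPKM), and from Tbx3 (37.8 to 63.1 FPKM). None was called between genotypes of Flk-1+ cells. In HE1, in the mean of both genotypes, Klf2 and Nr5a2 were called higher and Tbx3, Zscan10 and L1td1 lower, 5 of the 10 tested where 30.3% of all tested genes were called, with a median of -0.69 over the list against 0.20 over all genes. Klf2 also serves endothelium as a flow-responsive factor, and rose from at most 0.632 FPKM in each Flk-1+ library to 10.4 to 18.97 FPKM in HE1. L1td1, an RNA-binding partner of LIN28, was 2.58 to 12.5 FPKM in Flk-1+ cells and listed at 0 in HE1. Nr5a2 stayed at most at 3.72 FPKM. Klf2 and Nr5a2 passed the filter through HE1 libraries alone and L1td1 through Flk-1+ libraries alone, which fixed the direction open to each.

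Primed epiblast genes mark the pluripotent state that comes just before gastrulation. Of 13 such genes 8 were tested, and 7 of them were called lower in HE1 in the mean of both genotypes, where 7.99% of all tested genes were, with a median of -1.73 over the list against 0.20 over all genes. The same number was called with quantile normalization, after rescaling and without the shallow library. Fgf5, Otx2, Tdgf1, Lefty2, Cdh1 and Epcam were below 1 FPKM in every HE1 library and passed the filter through Flk-1+ libraries alone. For these genes only a lower call was open, so the count is no independent test of a fall. Tdgf1, the NODAL co-receptor CRIPTO, had the highest level of the 8 in WT Flk-1+ cells at 49.1, 41.7 and 63.8 FPKM and was at most 0.172 FPKM in HE1. Otx2 and Zic2, transcription factors of the epiblast and later of the forebrain, were 4.33 to 4.82 and 15.5 to 19.7 FPKM in WT Flk-1+ cells. In HE1 Otx2 was listed at 0 and Zic2 was 0 to 4.22 FPKM. Cdh1 (E-cadherin) was 0.155 to 7.91 FPKM in the 9 Flk-1+ libraries and at most 0.795 in HE1. In Flk-1+ cells limma called none of the 8 against WT, and the median difference was -0.54 in Lmo2-/- and -0.68 in Tal1-/-, which share the WT libraries, against -0.01 over all genes in both comparisons. Other lists had medians of like size, -0.57 in both for the 8 Flk-1+ mesoderm markers, and -0.95 and -1.10 for the 4 definitive endoderm markers tested.

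**Figure D5:**
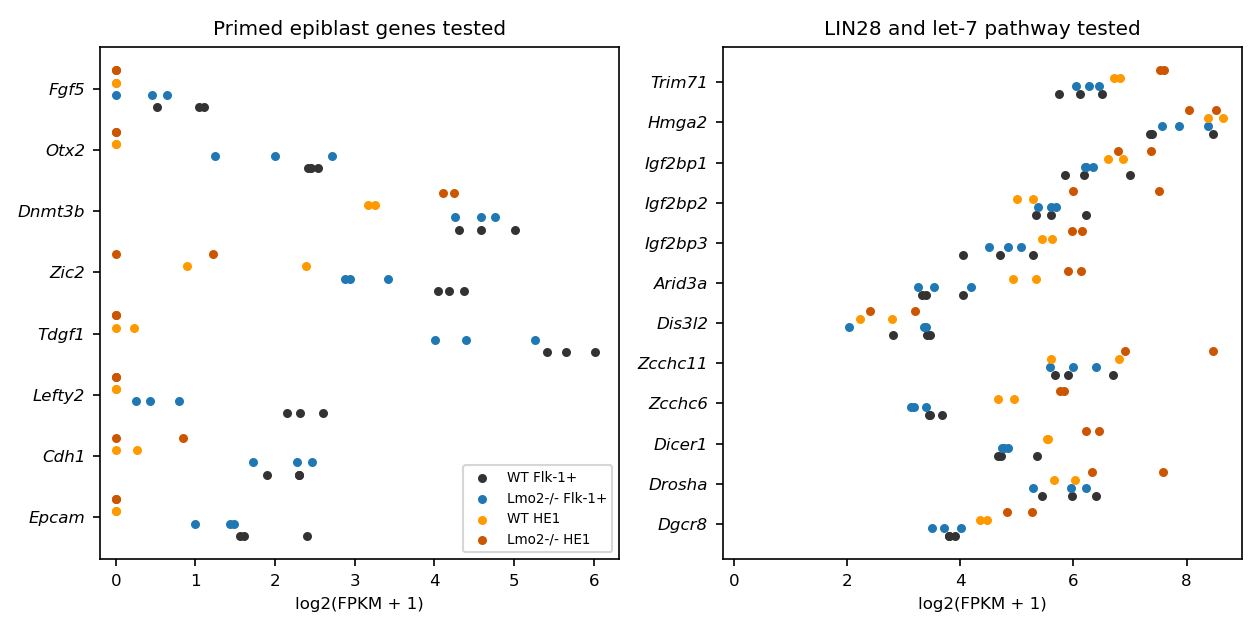
log2(FPKM + 1) in each WT and Lmo2-/- library of the 8 primed epiblast genes tested (left) and the 12 genes of the LIN28 and let-7 pathway (right), with a point for each library, coloured by group. The epiblast genes lie to the left for HE1 (7 of 8 called lower), and most genes of the LIN28 pathway lie to the right (6 of 12 called higher).

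The let-7 pathway holds the partners and targets of the LIN28 proteins, and all 12 genes of it were tested. Of these 6 were called higher and 0 lower in HE1 in the mean of both genotypes, where 22.3% of all tested genes were called higher, with a median of 0.92 against 0.20 over all genes. This count was 2 with quantile normalization, where 13.1% of all genes were called higher, and 2 after rescaling, where 9.77% were (medians 0.21 and 0.19). It was 6 without the shallow library. Arid3a, a let-7 target in B lymphoid and haematopoietic progenitors, rose by 1.95 ± 0.27 (SE, limma adjusted p = 0.000208), from 8.49 to 17.4 FPKM in WT and Lmo2-/- Flk-1+ libraries to 29.5 to 68.9 in HE1. Zcchc6, a uridylyltransferase that acts on let-7 precursors, rose by 1.92 ± 0.24 (SE, limma adjusted p = 7.56e-05). Dicer1, Igf2bp3 and Trim71 differed by 1.09, 1.06 and 0.97 on that scale. None of the 12 was called between Flk-1+ genotypes. Of 12 enzymes of threonine, glycine and one-carbon metabolism, the pathway that Tdh feeds, 2 were called in the mean of both genotypes, Gcat lower (-1.18) and Dld higher (1.07), a smaller share than the 30.3% of all tested genes. With quantile normalization 2 of these enzymes were called lower and 0 higher, where 10.2% of all genes were called lower and 13.1% higher. After rescaling 4 were called lower and 0 higher, where 16% of all genes were called lower and 9.77% higher. The smaller share of the enzymes thus did not hold after rescaling. All 12 enzymes were at or above 1 FPKM in at least 1 library of each Flk-1+ group.

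Markers of other cells that could carry pluripotency transcripts were measured beside these genes. Of 8 neuroectoderm markers, which could accompany Sox2, 6 were below 1 FPKM in each WT, Lmo2-/- and Tal1-/- Flk-1+ library, Six3, Hes5, Zic1 and Rax were listed at 0 in all 13 libraries, and the summed level of 5.06 to 8.35 FPKM in Flk-1+ cells was mostly Nes. In HE1 the summed level was 17.8 to 55.6 FPKM, again mostly Nes, a gene that endothelium also expresses. Of 6 primordial germ cell markers, which could accompany Pou5f1 and Nanog, Nanos3 was listed at 0 in all 13 libraries and Dazl in 12. Their summed level was 1.76 to 2.88 FPKM in WT, 1.72 to 1.78 in Lmo2-/-, 1.96 to 2.94 in Tal1-/- and 1.50 to 5.66 in HE1. Ddx4 was 1.19, 0.966 and 0.0709 FPKM in Tal1-/- and at most 0.318 in the other Flk-1+ libraries. Tfap2c and Prdm1 were detected in every Flk-1+ library, at 0.634 to 1.74 and 0.152 to 1.12 FPKM. In HE1 they were 0 to 1.90 and 1.50 to 3.47 FPKM. Dnd1 was at most 0.406 FPKM in Flk-1+ cells and at most 1.29 FPKM in HE1. Definitive endoderm markers summed to 6.21 to 10.4 FPKM in WT, 1.46 to 3.23 in Lmo2-/- and 0 to 3.31 in Tal1-/- Flk-1+ cells, and to 12.4 to 38.7 in HE1. The HE1 sum came mostly from Hhex and Sox17, which endothelium also expresses. Foxa1, Gsc and Cer1 were listed at 0 in all 4 HE1 libraries. Foxa2 was 0.211 FPKM in WT HE1 replicate 1 and 2.66 FPKM in Lmo2-/- HE1 replicate 0, and listed at 0 in the other HE1 libraries. The part of these other cells in the levels of Pou5f1 and Nanog was not tested.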

How the data were processed

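RNA of the 13 libraries was sequenced from stranded mRNA libraries. The authors mapped reads to GRCm38 with TopHat 2.0.9, assembled transcripts with Cufflinks 2.0.0, using quartile normalisation and effective length correction, and merged them with Cuffmerge. The deposited files hold FPKM for each library from CuffNorm, used here, and FPKM pooled by condition from Cuffdiff 2.0.1, from which the gene names were taken. The authors' table of comparisons (fold changes, p-values and q-values) was not used. Fragment counts are not in these files, so depth was judged from the steps of low FPKM values: 94.2 to 98.2% of them were within 0.1 of a whole number of fragments. Fragment numbers in the text are estimates from these steps.

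Libraries were grouped by genotype and cell type from the labels, with replicate numbers from the column names. Genes with a locus over 200 bp and at least 1 FPKM in at least 2 libraries were tested on log2(FPKM + 1) with limma 3.58.1 in R 4.3.3, with a mean-variance trend, all groups in 1 fit, two-sided and Benjamini-Hochberg adjusted. Fold changes on this scale understate those of low genes. Single genes also had exact permutation tests, two-sided, in scipy 1.17.1, which cannot go below 0.10 for 3 against 3 libraries. The study calls the libraries biological triplicates (Flk-1+) and duplicates (HE1) of 1 line per genotype, and p-values measure the spread between these libraries. The fit was tested on simulated data. All 10 genes are described, and from each list the genes called, at most 5 with the largest change per comparison. A gene of the epiblast list is not reported here, and its counts leave it out. The genes, lists and tests were chosen with earlier results of these data known. Alternatives were another pseudocount, other filters, a mean FPKM above 10, 2 other scalings, separate fits, array weights, the replicate block and each library left out. Those for the lists were chosen after seeing the data. Positions are from GENCODE and promoter windows from RefSeq.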

Additional observations from a re-analysis of the deposited data

How the results depend on the processing

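None of the genes was called between Flk-1+ genotypes in any of the 22 alternatives in which it was tested. Pou5f1, Nanog, Lin28a and Lin28b were tested in all 22, and Dppa4 and Dppa5a in 19. Sox2, Utf1 and Zfp42 were tested in 1, with no filter on low values, and Tdh in none. For HE1 against Flk-1+ cells as the mean of both genotypes, Pou5f1 was called in all 22 alternatives, Nanog in 21 (not where a mean above 10 FPKM was also asked) and Lin28b in 20 (not with quantile normalization or rescaling). Dppa4 was added with quantile normalization and without WT HE1 replicate 0. Within a genotype the counts moved more. In WT, where 2 were called, it was 1 with no filter on low values, with a mean FPKM above 10, with the groups compared alone and with the replicate block, 4 with array weights (Dppa4 and Lin28b added), 3 with quantile normalization (Dppa4 added), and 1 to 2 with a library left out. In Lmo2-/-, where 2 were called, it was 1 with a mean FPKM above 10, with quantile normalization, with rescaling, with the groups alone and with the block, 0 with array weights, 3 with a pseudocount of 0.1 (Nanog added), and 0 to 3 with a library left out. Leaving out Lmo2-/- HE1 replicate 0, which leaves the shallow library alone with the spread of the other groups, added Lin28a there, in Lmo2-/- against WT HE1 (0 to 1 called over the libraries left out) and in the interaction (0 to 1). At 0.5 FPKM in place of 1 FPKM, 3 genes were off in Lmo2-/- and 2 in Tal1-/- Flk-1+ cells. At 2 FPKM 7 were off in Lmo2-/- Flk-1+ cells, and 3 remained and 1 was mixed in WT Flk-1+ cells. Rescaling moved no class count. The deviations of same-numbered libraries from their group means correlated at -0.184 to 0.169. With so few libraries per group, and no comparison with differently numbered libraries, this cannot decide whether the numbers pair them. The block lowered the calls over all genes from 1345 to 949 in WT and from 3524 to 2773 in Lmo2-/-. Over all genes the calls ranged from 376 (without WT HE1 replicate 0) to 2552 (array weights) in WT, against 1345, and from 1104 (array weights) to 5165 (without Lmo2-/- HE1 replicate 0) in Lmo2-/-, against 3524. They ranged from 0 (groups alone) to 3136 (without Lmo2-/- HE1 replicate 0) in Lmo2-/- against WT HE1, against 626, and from 0 (without WT HE1 replicate 0) to 1458 (without Lmo2-/- HE1 replicate 0) in the interaction, against 64. Between Flk-1+ genotypes they were 0 to 2 in Lmo2-/- against WT (0 as reported), 0 to 23 in Tal1-/- against WT (0 as reported) and 0 to 12 in Tal1-/- against Lmo2-/- (2 as reported). The causes were not tested. Depth limits what a 0 means in the shallow library, and for Dppa5a in the other HE1 libraries too.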

Other observations

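Of the 17 naive ES cell genes, 4 had Tal1-/- Flk-1+ libraries that did not overlap with those of WT and Lmo2-/-. Fgf4 and Prdm14 lay above them and L1td1 and Esrrb below them. These genes were chosen after their values were seen. Over all tested genes 12.6% had no overlap in Tal1-/- against WT and 13.3% in Tal1-/- against Lmo2-/-, and the share for both at once was not computed. The gaps of Prdm14 and L1td1 to the nearest library were narrow. Fgf4, a growth factor gene that OCT4 and SOX2 switch on in the early embryo, was 2.67, 3.05 and 1.87 FPKM in Tal1-/-, against 0.235, 0.0479 and 1.29 in WT and 0.970, 0.649 and 0.393 in Lmo2-/-. Prdm14, a repressor of differentiation genes in ES and germ cells, was 1.77, 1.57 and 0.385 FPKM in Tal1-/- and at most 0.374 in WT and Lmo2-/-. L1td1 was 2.58, 3.36 and 4.06 FPKM in Tal1-/- and at least 4.15 in WT and 7.21 in Lmo2-/-. Esrrb, an orphan nuclear receptor of ES cells, was at most 0.0529 FPKM in Tal1-/- and at least 0.213 in the other Flk-1+ libraries, too low to be tested. By limma none of the other 3 was called in Tal1-/- against WT (adjusted p = 0.480 for Fgf4, 0.722 for Prdm14 and 0.700 for L1td1). Prdm14 passed the filter through Tal1-/- libraries alone, so only a higher call there was open to it. Fgf4 would not have passed the filter without its Tal1-/- libraries.

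Lefty2, a NODAL antagonist also chosen after its values were seen, was 5.05, 3.98 and 3.44 FPKM in WT Flk-1+ cells. It was 0.740, 0.344 and 0.195 FPKM in Lmo2-/-, where every library lay below every WT library, and 0.367, 4.17 and 3.52 FPKM in Tal1-/-, which overlapped with WT. It was listed at 0 in all 4 HE1 libraries. The Lmo2-/- difference was -1.86 ± 0.48 (SE) on the log2(FPKM + 1) scale, with a limma adjusted p of 1 over all genes. Of all tested genes 8.21% had no overlap between Lmo2-/- and WT Flk-1+ libraries.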
